A study of Mus musculus with 12 samples.

Results

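Bezafibrate, a fibrate drug that lowers blood lipids, was compared with no treatment in the livers of wild-type mice. The comparison took the 3 arrays labelled wild-type with 5 days of bezafibrate and the 3 labelled wild-type without treatment, which are 6 of the series' 12 arrays, and covered all 45101 probe sets. After a filter on weak signal and a match to gene symbols, 13598 genes were tested. All 6 animals were male Jcl:ICR mice, an outbred stock, 6 to 12 weeks old, on 12 h of light and 12 h of dark. Treated mice ate a diet with 0.5% (w/w) bezafibrate, and every liver was collected at ZT14, that is 14 h after lights on, in the dark phase. For each mouse 250 ng of total RNA was labelled. The other 6 arrays, of treated PPARα-null mice (129S4SvJae-PPARalphatm1Gonz/J crossed with Jcl:ICR) and treated Clk/Clk mutant mice of the Jcl:ICR strain, entered the fit for the spread between mice and are used for 1 set of values at the end. No mutant mouse was left untreated, so these 2 groups do not show a response to the drug.

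Fibrates bind PPARα, a nuclear receptor that pairs with RXR on DNA. In rodent liver the receptor is known for switching on fatty acid oxidation in peroxisomes and mitochondria, microsomal ω-hydroxylation and fatty acid transport, and for liver enlargement with hepatocyte division. Rodent peroxisomes multiply on fibrates, which gave the class the name peroxisome proliferators.

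Values are log2 expression levels per probe set, and a difference of 1 is a doubling. A gene was called when its limma p, adjusted over all 13598 genes by Benjamini-Hochberg, was under 0.05 and it differed 1.5-fold or more between the groups. Bezafibrate raised 1742 genes, 12.8% of those tested, and lowered 1056, 7.77%, so 20.6% changed in either direction. The list counts below are to be read beside these shares, and no list was tested against them. The median difference over all genes was 0.0065 with a median SE of 0.0996. At 8-fold or more there were 64 rises and 40 falls, and at 32-fold or more 8 and 5. Treated and untreated levels did not overlap for 1710 of the called rises and 1037 of the called falls, and, over all 13598 genes called or not, for 4113 that were higher and 3546 that were lower with treatment. The share of genes called rose with level. Over 4 equal bins of level, 7% of the weakest genes rose and 2.76% fell, against 14.6% and 13.6% of the brightest. Arrays correlated at 0.993 to 0.994 among treated mice, at 0.994 to 0.996 among untreated mice and at 0.970 to 0.974 between the groups. An array has no sequencing depth. The number of mice and, for weak genes, signal near background limit the precision, and the labels do not say whether the mice shared a cage or litter. Whole liver was measured, so fewer cells of a type and less RNA per cell cannot be told apart.

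**Figure D1:**
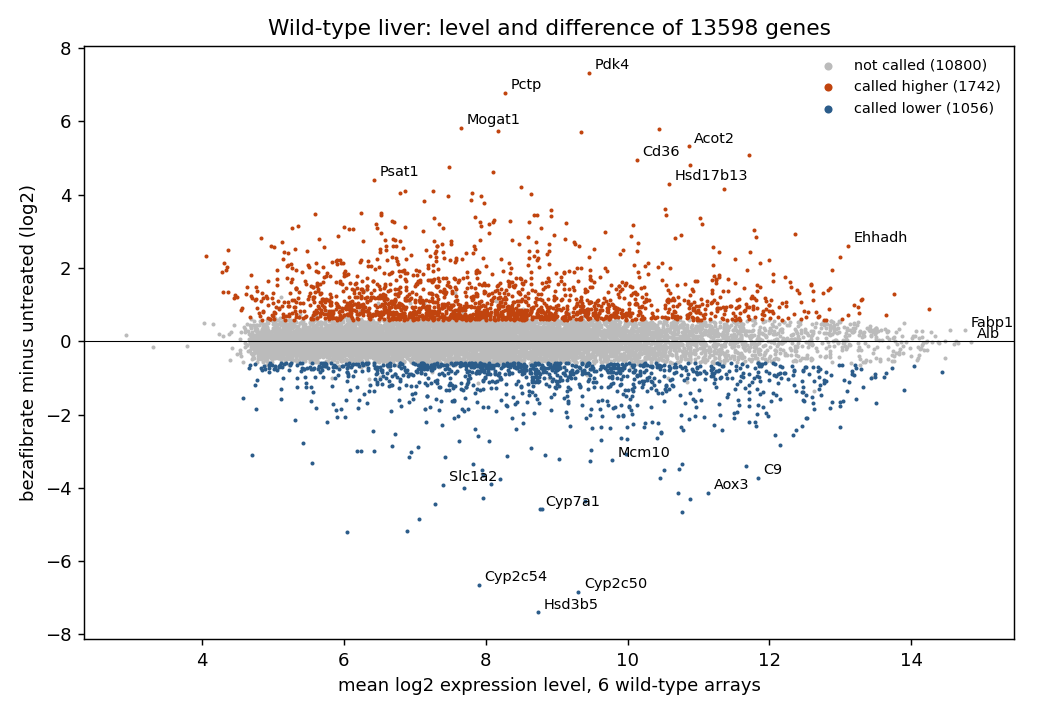
Mean log2 level over the 6 wild-type arrays (x axis) against bezafibrate minus untreated on the log2 scale (y axis); each point is 1 of 13598 genes. The 1742 called rises are red, the 1056 called falls blue and all others grey; albumin (Alb) and Fabp1 lie at the right end near 0.

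The peroxisomal enzymes of fatty acid oxidation moved upward as a group. Of 17 tested members 12 rose and none fell, with a median difference of 0.96 against 0.0065 for all genes. Leaving out treated mouse 2, untreated mouse 1 or untreated mouse 3 added 1 fall. Ehhadh, the bifunctional enzyme of the peroxisomal pathway, read 14.40, 14.40 and 14.42 in the treated mice and 11.45, 11.94 and 12.04 in the untreated ones. The groups lay far apart, and the treated level was so near the top of the scale that the difference of 2.60 (SE 0.127, adjusted p = 5.54e-08) may be compressed. Eci2, an isomerase for unsaturated chains, rose by 1.08, and Crot and Crat, which attach medium-chain and short-chain products to carnitine for export, by 1.55 and 1.63. A second, weaker Crot probe set gave -0.23. Phyh, which starts the α-oxidation of branched chains, was at 13.10, 13.14 and 13.23 in treated and 13.61, 13.69 and 13.75 in untreated mice. Its groups did not overlap, but the difference of -0.53 stayed under 1.5-fold, as did that of the lipid carrier Scp2 at -0.17.

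Peroxins, the proteins that build and divide peroxisomes, divided. Of 14 tested 5 rose and 1 fell, with a median of 0.30. The rises were 35.7%, while the fall, 7.14%, was near the 7.77% of all genes. Pex11a, which elongates and divides the organelle, was at 13.03, 12.79 and 12.99 with treatment and 10.78, 10.76 and 10.84 without, a rise of 2.15 (SE 0.094, adjusted p = 2.95e-08). Pex19, the import receptor for membrane proteins, rose by 1.21 and the docking protein Pex14 by 0.66. Pex7, the receptor for the PTS2 import signal, did not pass the test at -0.07 (adjusted p = 0.326). The half-transporter Abcd3, which brings fatty acids into peroxisomes, rose by 1.15, and its relative Abcd2, for very long chains, by 3.45.

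In the carnitine shuttle and mitochondrial β-oxidation 12 of 20 genes rose and none fell, with a median of 0.87. Eci1, the mitochondrial counterpart of Eci2, read 13.10, 13.08 and 13.12 in treated mice against 10.86, 10.81 and 10.96 in untreated mice. Its groups were separated by far more than either one's spread, at 2.22 (SE 0.0651, adjusted p = 2.50e-09). The carnitine importer Slc22a5 rose by 2.87, the acylcarnitine carrier Slc25a20 by 1.18, the long-chain dehydrogenase Acadl by 1.54, and both subunits of the trifunctional protein, Hadha and Hadhb, by 1.77 and 1.40. Some later steps moved less. Hadh, the hydroxyacyl-CoA dehydrogenase for shorter chains, went from 13.54 to 13.81 and the thiolase Acaa2 from 13.01 to 13.46, both under 1.5-fold. Cpt1a, which admits long chains to the mitochondrion, read 11.97, 11.82 and 11.68 against 11.61, 11.73 and 11.62, so that treated and untreated mice were close (difference 0.17, SE 0.119, adjusted p = 0.271).

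Thioesterases and acyl-CoA synthetases, which remove coenzyme A from fatty acids or add it, gave 19 rises and 3 falls among 27 tested genes and the highest median of the lipid lists, 1.09. The cytosolic thioesterase Acot1 read 13.53, 13.27 and 13.48 with treatment and 8.98, 9.52 and 9.35 without, and the mitochondrial Acot2 13.64, 13.38 and 13.55 and 7.80, 8.08 and 8.71. Their rises were 4.15 (SE 0.13, adjusted p = 4.11e-09) and 5.32 (SE 0.219, adjusted p = 1.98e-08), and since the 2 sequences are close, their probe sets may share signal. Untreated mouse 3 had the highest Acot2 level of its group, still under every treated mouse. Peroxisomal Acot4 and Acot8 rose by 2.53 and 2.09, and Acot9 by 2.43. The supply of coenzyme A itself moved in 6 of 14 genes, 5 upward (35.7%) and 1 downward (7.14%, near the 7.77% of all genes). The pantetheinase Vnn1, which recycles vitamin B5, was at 13.55, 13.20 and 13.29 in treated and 6.91, 7.36 and 8.38 in untreated mice. Untreated mice differed among themselves by over 1 unit here, and the rise of 5.80 (SE 0.421, adjusted p = 9.54e-07) was several times that. Ppcs, the second enzyme of coenzyme A synthesis, rose by 1.99 and Slc25a42, a mitochondrial coenzyme A carrier, by 1.35.

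Other mitochondrial lists had lower medians than β-oxidation. The tricarboxylic acid cycle gave 3 rises and no fall in 18 genes (median 0.17), and the mitochondrial ribosome 10 rises and no fall in 76 (median 0.25), a share near the 12.8% of all genes. Citrate synthase, Cs, rose by 1.55 and the malate dehydrogenase Mdh2 by 0.87. Pdk4, the kinase that shuts pyruvate out of oxidation, read 13.26, 12.89 and 13.21 in the treated mice and 5.45, 5.48 and 6.46 in the untreated ones. No other gene rose by as much, 7.32 (SE 0.365, 160-fold, adjusted p = 6.42e-08), and again untreated mouse 3 was the highest of its group. Dlat, a subunit of the enzyme Pdk4 inhibits, rose by 1.10, whereas Pdhb, another subunit, did not pass the test (-0.07). Slc25a4, the adenine nucleotide carrier of muscle and heart, was at 10.48, 10.54 and 10.22 against 7.36, 7.67 and 7.52, a rise of 2.90. Slc25a5, the carrier that predominates in liver, was bright in all 6 mice, with a difference of 0.06 (adjusted p = 0.47). Among the Slc25 family 9 of 40 rose and 7 fell, the falls including the ornithine carrier Slc25a15 (-0.94).

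Ketone body genes did not move as a group, with 1 rise and 2 falls in 8 (median 0.05; leaving out treated mouse 2 gave 2 rises). The ketone and lactate transporter Slc16a1 rose by 1.75. Bdh2, a cytosolic dehydrogenase, read 6.32, 5.46 and 5.77 with treatment and 8.84, 9.26 and 8.88 without, and no treated mouse came within 2 units of an untreated one (difference -3.15, SE 0.186, adjusted p = 2.11e-07). Its mitochondrial namesake Bdh1, which makes β-hydroxybutyrate, differed by -0.14 (adjusted p = 0.226).

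**Figure D2:**
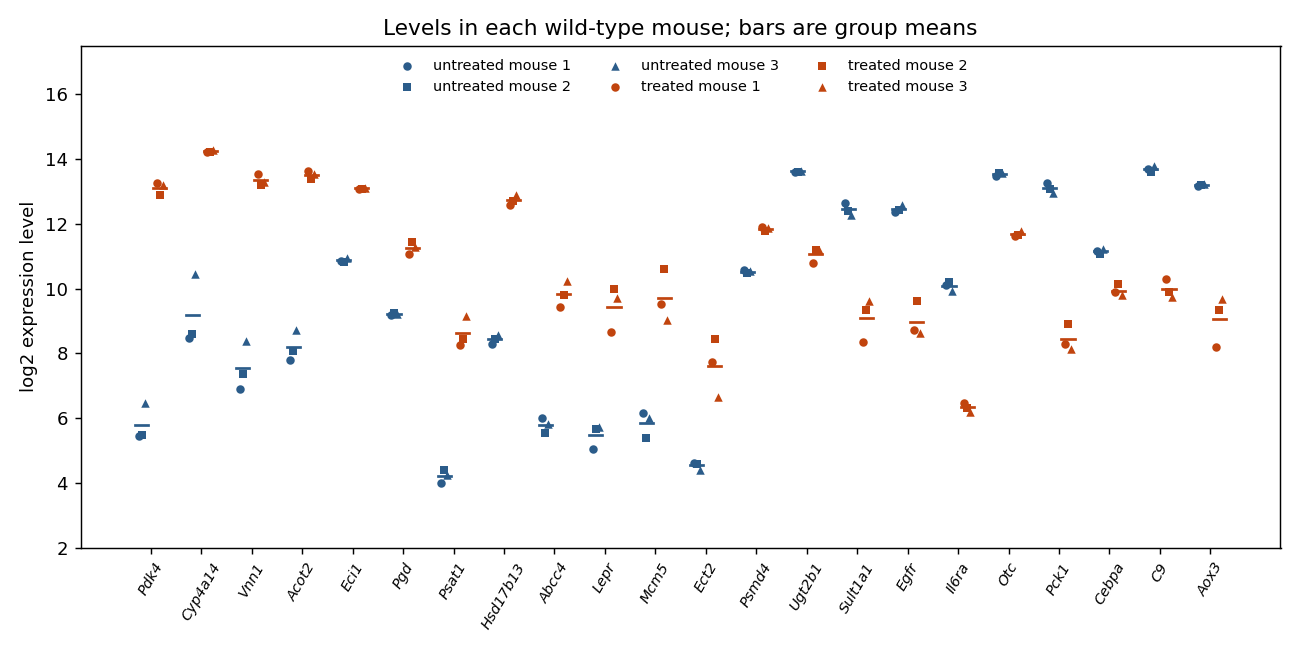
Log2 expression level (y axis) of 22 genes named in the text (x axis) in each wild-type mouse; red symbols are treated and blue symbols untreated mice, the shape gives the mouse number within its group, and bars are group means. Treated and untreated mice do not overlap for any of the 22, and untreated mouse 3 lies highest of its group for Pdk4, Cyp4a14 and Vnn1. The 22 were picked from called genes, where 1710 of 1742 rises and 1037 of 1056 falls do not overlap.

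A PPAR element, taken as an exact direct repeat, was rare in the promoter windows. It was searched as 2 copies of AGGNCA 1 base apart, on both strands, in the RefSeq windows from 250 bases before to 50 after each gene's start (GRCm38.p6), which were found for 10926 of the 13598 genes. It stood in 3 of 1436 genes that rose (0.209%), 6 of 814 that fell (0.737%) and 47 of all 10926 (0.430%). Such a match is a description of letters, not a bound site, and many known elements lie outside this window. No mismatch was allowed, so near matches were not counted, and which receptor binds a match was not tested. Fabp1, the liver fatty acid-binding protein, and Pbld1, which resembles bacterial phenazine synthesis proteins, are shown because both hold the element and moved in different ways, with the match in capitals.
Fabp1: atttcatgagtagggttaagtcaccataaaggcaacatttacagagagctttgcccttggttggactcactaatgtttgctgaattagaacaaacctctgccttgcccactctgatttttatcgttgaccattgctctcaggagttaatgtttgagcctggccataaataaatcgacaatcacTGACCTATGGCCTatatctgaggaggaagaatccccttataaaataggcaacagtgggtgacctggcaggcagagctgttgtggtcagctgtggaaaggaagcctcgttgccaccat
Pbld1: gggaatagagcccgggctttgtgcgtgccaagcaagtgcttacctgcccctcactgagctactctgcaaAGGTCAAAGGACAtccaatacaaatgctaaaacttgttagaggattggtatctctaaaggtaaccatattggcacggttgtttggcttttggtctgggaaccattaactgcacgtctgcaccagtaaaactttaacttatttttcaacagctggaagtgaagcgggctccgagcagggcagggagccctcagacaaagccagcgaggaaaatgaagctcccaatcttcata
The Fabp1 window is chr6:71199629-71199928 (+) with its match from position -67 of the gene start, and the Pbld1 window chr10:63061339-63061638 (+) with its match from -181. Fabp1 read 14.93, 14.89 and 14.92 in treated and 14.57, 14.63 and 14.64 in untreated mice. The groups did not overlap, but at the top of the scale the difference was only 0.30 (SE 0.0555, adjusted p = 9.83e-04). Pbld1 read 4.57, 8.97 and 4.84 with treatment and 10.61, 9.73 and 9.72 without. Treated mouse 2 stayed close to the untreated mice while the other 2 treated mice were far below them, so the fall of -3.90 (SE 0.882, adjusted p = 0.00342) hides a divided group; without that mouse it was -5.32.

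Fatty acid handling was joined by enzymes that build glycerolipids and phospholipids, with 9 rises and 1 fall in 31 genes (median 0.08; 2 falls when treated mouse 2, treated mouse 3 or untreated mouse 2 was left out, or after quantile normalization). Chkb, a choline kinase, was at 11.21, 10.996 and 11.06 in treated mice and 8.58, 8.76 and 8.76 in untreated mice. The 2 groups were tight and apart, with a difference of 2.39 (SE 0.0786, adjusted p = 6.11e-09). Lpcat3, which inserts polyunsaturated chains into phosphatidylcholine, rose by 1.94. The fall was in Lpin1, which makes diacylglycerol and also acts as a coactivator of the receptor, at 9.30, 9.39 and 9.22 against 12.04, 11.25 and 11.33 (-2.24, SE 0.335, adjusted p = 2.13e-04). Dgat2, the last step of triglyceride synthesis, fell short of the fold threshold at -0.51. In sphingolipid metabolism 4 of 21 rose and 1 fell (0 falls without treated mouse 1, 2 without untreated mouse 3). They included Sptlc2 (1.61; -0.07 on its lowest probe set) and Kdsr (1.88), which catalyse its first and second steps. Hsd17b13, a dehydrogenase bound to lipid droplets, was at 12.59, 12.70 and 12.91 with treatment and 8.29, 8.44 and 8.58 without (4.29, SE 0.0978, adjusted p = 3.32e-10). Its other probe set gave -1.55, so the 2 disagreed in direction.

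Genes that supply NADPH moved mostly upward, and 13 of 19 glycolysis genes were not called. Of 10 pentose phosphate and NADPH genes 4 rose and 1 fell (median 0.55). Pgd, the second oxidative step, read 11.08, 11.44 and 11.30 against 9.18, 9.26 and 9.23, a rise of 2.04 (SE 0.097, adjusted p = 4.64e-08). Rpia and Tkt of the non-oxidative branch rose by 2.28 and 1.03, and the malic enzyme Me1 by 2.92. The fall was in the fructose kinase Khk, 10.84, 11.70 and 11.28 against 12.21, 12.18 and 12.07 (-0.88). Khk was counted in the list but is neither a pentose phosphate enzyme nor a source of NADPH. G6pdx, the first oxidative step, was listed but was not among the tested genes. In glycolysis 2 genes rose and 4 fell of 19 (1 rise without untreated mouse 3). The shares were 10.5% and 21.1%, against 12.8% and 7.77% over all genes. Aldoa rose by 0.97, while the glucose transporter Slc2a2 fell by 1.20 and Pfkfb3, which makes the activator of phosphofructokinase, fell by 1.64. Treated mice spread over 0.83 units for Slc2a2, against 0.17 for untreated mice.

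In serine, glycine and one-carbon metabolism 11 of 23 genes fell and 3 rose (median -0.38). Gnmt, the methyltransferase that disposes of surplus S-adenosylmethionine, read 12.21, 12.41 and 12.68 in treated and 13.95, 14.004 and 14.04 in untreated mice, a difference of -1.57 (SE 0.11, adjusted p = 7.82e-07). Cth, which makes cysteine from cystathionine, fell by 1.56, the sarcosine dehydrogenase Sardh fell by 1.75 and the folate enzyme Aldh1l1 fell by 1.25. Psat1, a transaminase of serine synthesis, rose instead. It read 8.27, 8.44 and 9.16 with treatment and 4.001, 4.41 and 4.25 without, where the untreated signal lay under the filter level of 4.87 to 4.92, so its rise of 4.40 (SE 0.377, adjusted p = 3.33e-06) is not an exact fold. Nucleotide synthesis gave 6 rises and no fall in 20 genes (median 0.30), with both CTP synthases, Ctps and Ctps2, at 1.40 and 1.53 and the purine salvage enzyme Hprt at 1.12.

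Genes of the periportal zone, where urea and glucose are made, fell in 13 of 20 cases with 1 rise (median -0.91, the lowest of the hepatocyte lists). The urea cycle enzyme Otc read 11.63, 11.66 and 11.79 in treated mice and 13.49, 13.58 and 13.58 in untreated mice. No value of 1 group came near the other (-1.85, SE 0.0787, adjusted p = 2.45e-08). Asl, 2 steps on, fell by 2.002 and Cps1, the first step, fell by 1.24, while Arg1, which releases urea, was within 1.5-fold (-0.19). Hal, which degrades histidine, fell by 2.70. Pck1, the entry enzyme of gluconeogenesis, read 8.28, 8.90 and 8.15 against 13.27, 13.08 and 12.95, while Fbp1 further along the pathway differed by -0.53. The 1 rise was Hsd17b13, described above. Around the central vein 8 of 19 genes fell and 1 rose (median -0.48). Slc1a2, the glutamate transporter of that zone, read 5.18, 5.34 and 5.82 with treatment and 9.57, 9.25 and 9.25 without (-3.91, SE 0.201, adjusted p = 7.54e-08); its weakest-moving probe set gave -0.40. Oat fell by 2.26 and Gulo, the last enzyme of vitamin C synthesis, fell by 2.50. Cyp2e1, a well-known cytochrome of that zone, differed by -0.47 and was not called.

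Enzymes that conjugate drugs and hormones included many falls. UDP glucuronosyltransferases gave 6 falls and no rise in 10 (median -0.70) and sulfotransferases 5 falls and no rise in 8 (median -1.33). Ugt2b1 was at 10.80, 11.19 and 11.18 in treated and 13.61, 13.61 and 13.64 in untreated mice (-2.56, SE 0.104, adjusted p = 1.84e-08). Untreated mice agreed to within 0.03 units and every treated mouse was over 2 units below. Its relatives Ugt2b5 and Ugt2b36, near the top of the scale, moved by -0.08 and -0.35. Sult1a1, the phenol sulfotransferase, read 8.35, 9.33 and 9.61 against 12.66, 12.40 and 12.28, a difference of -3.35 (SE 0.345, adjusted p = 1.33e-05), and Sult1b1 fell by 2.59. Papss1 and Papss2, which supply the sulfate donor, did not reach 1.5-fold (0.17 and 0.01). Among Cyp2 cytochromes 16 of 31 fell and 4 rose (median -0.72). Cyp2c68 fell by 2.05, whereas Cyp2b9, a female-predominant cytochrome, read 12.69, 12.01 and 12.29 against 9.25, 8.94 and 7.97, a rise of 3.61 (SE 0.295, adjusted p = 2.32e-06). Carboxylesterases gave 4 falls in 12, which became 2 falls and 1 rise without untreated mouse 2. Ces1c, the esterase of mouse plasma, fell by 2.10. Aldehyde oxidase Aox3 read 8.19, 9.35 and 9.68 with treatment and 13.16, 13.21 and 13.24 without, the treated mice spreading over 1.49 units and the untreated ones over 0.08 (-4.13, SE 0.388).

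Glutathione transferases gave 6 rises and 1 fall in 20 (median 0.19). Gstm3 was at 12.26, 13.75 and 13.71 in treated and 10.27, 10.63 and 10.27 in untreated mice. Treated mouse 1 rose less than the other 2, and the mean rise was 2.85 (SE 0.563, adjusted p = 0.00144). Gstm4 rose by 2.14 and the membrane-bound Mgst3 by 2.67, with 0.29 on the second Mgst3 probe set, while Gsta4 fell by 1.09. Nfe2l2 (NRF2), a transcription factor of many antioxidant genes, read 11.49, 11.59 and 11.32 against 9.74, 10.08 and 9.97, a rise of 1.53 (SE 0.174, adjusted p = 2.77e-05). Cyp2c, Cyp4a, Ugt2b, Gstm, Ces1 and Serpina1 genes have near-identical relatives, so signal may be shared within each family.

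Genes of transport across membranes were called in both directions. ABC transporters gave 9 rises and 3 falls in 41 (5 falls without treated mouse 3, without untreated mouse 1 or after quantile normalization). Abcc4, which exports bile acids and cyclic nucleotides from the basolateral side, was at 9.44, 9.82 and 10.23 with treatment and 6.01, 5.54 and 5.82 without (4.04, SE 0.288, adjusted p = 8.53e-07). All 3 treated mice were over 3 units above all untreated mice. Abcb4, the phosphatidylcholine floppase of the canaliculus, rose by 1.36. Of the uptake carriers of the Slco and Slc22 families 7 of 23 fell and 3 rose. Slco1a1 fell by 2.31 (SE 0.0801, adjusted p = 7.62e-09) and Slco1b2, an uptake carrier for bile acids and drugs, fell by 1.07. Slc39a5, a zinc importer, read 10.01, 9.83 and 9.88 against 5.90, 5.95 and 6.00, a rise of 3.96.

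**Figure D3:**
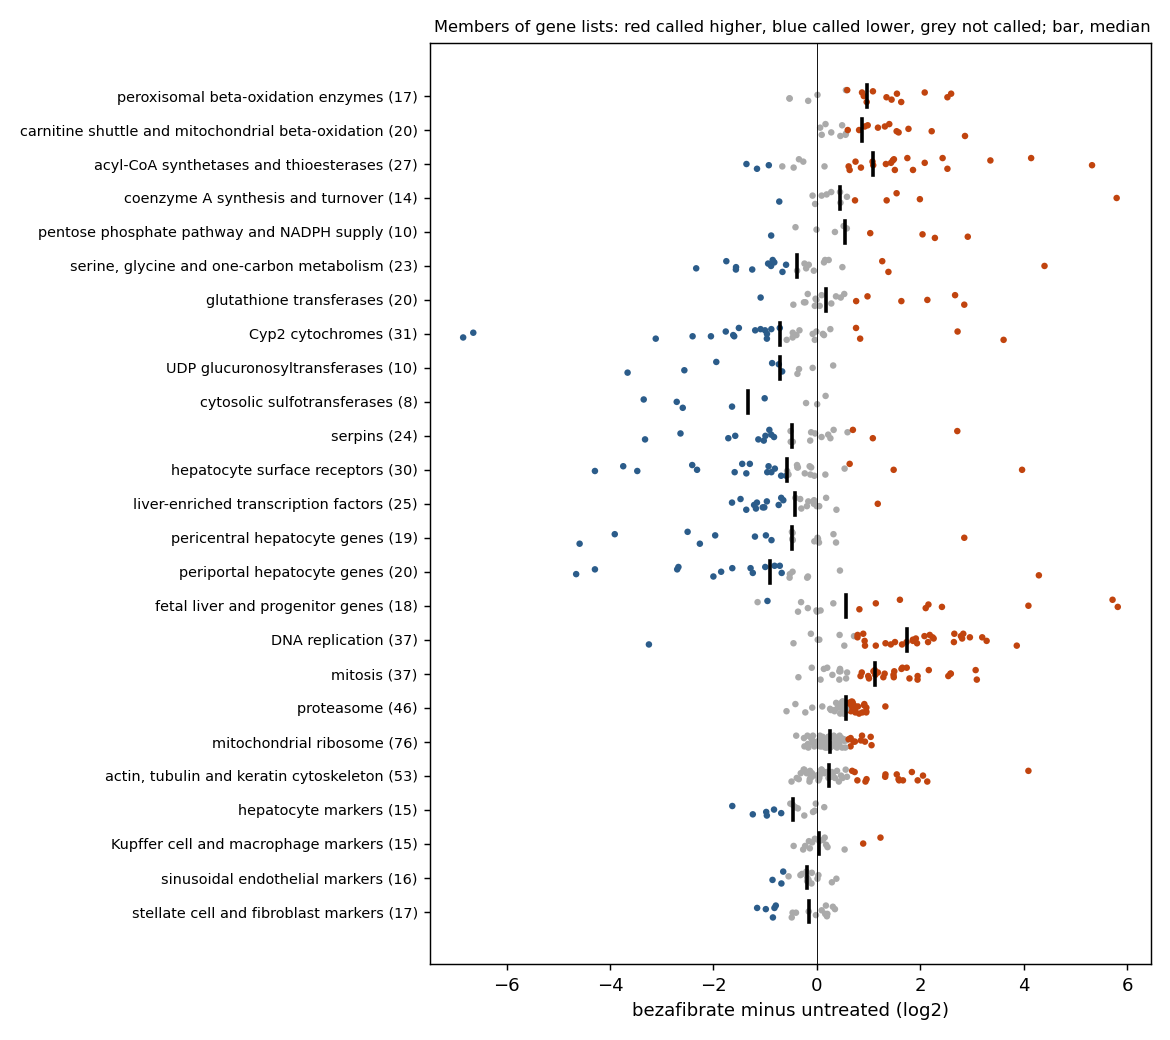
Bezafibrate minus untreated on the log2 scale (x axis) for each tested member of 25 gene lists (y axis, number of members in brackets); red points were called higher, blue lower and grey not called, and black bars are medians. DNA replication (median 1.73) and acyl-CoA synthetases and thioesterases (1.09) lie to the right, sulfotransferases (-1.33) and periportal genes (-0.91) to the left.

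Receptors on the hepatocyte surface fell in 15 of 30 cases and rose in 3 (median -0.58). The epidermal growth factor receptor Egfr read 8.72, 9.61 and 8.63 in treated and 12.38, 12.42 and 12.57 in untreated mice, a difference of -3.47 (SE 0.316, adjusted p = 5.23e-06), and all 6 of its probe sets were lower, the least by -0.58. Il6ra, the interleukin-6 receptor chain, read 6.47, 6.33 and 6.20 against 10.10, 10.21 and 9.92 and fell by 3.75 (SE 0.223). Il1rap fell by 2.41 and the growth hormone receptor Ghr fell by 1.297. The glucagon receptor Gcgr differed by -0.05 (adjusted p = 0.62). The leptin receptor Lepr rose from 5.04, 5.66 and 5.73 to 8.65, 9.98 and 9.71 (3.97, SE 0.343, adjusted p = 3.51e-06), with no overlap. Downstream of these receptors 7 of 24 signal transducers fell and 2 rose (1 rise without treated mouse 1, none without untreated mouse 1). Pik3r1 fell by 1.35, with 1 of its 4 probe sets at 0.35 and no call on the mean of the 4 (-0.44), and Stat3 fell by 0.84.

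In 2 lists of mostly secreted proteins falls outnumbered rises. Liver hormones and binding proteins gave 12 falls and 6 rises in 31 (median -0.20), or 38.7% and 19.4%, against 7.77% and 12.8% over all genes. Igf1, the main growth mediator of growth hormone, was at 12.35, 12.27 and 12.13 against 13.40, 13.33 and 13.28, a difference of -1.08 (SE 0.0815, adjusted p = 1.20e-06), and its plasma partner Igfals fell by 1.76. Igfbp1, which binds IGF-1, read 11.18, 9.45 and 11.29 with treatment and 6.76, 6.92 and 6.21 without. Treated mouse 2 was lower than the other 2 treated mice, yet above all untreated mice (4.01, SE 0.502, adjusted p = 5.75e-05). The fasting hormone Fgf21 read 8.29, 8.72 and 9.83 and 5.71, 5.71 and 5.79, the treated mice spreading over 1.54 units. Enho, which encodes adropin, fell by 2.90 on its brightest probe set and by as little as 0.03 on another of 4. Serpins, the protease inhibitors of plasma, gave 10 falls and 3 rises in 24 (median -0.49). The falls were 41.7%, while the rises, 12.5%, were near the 12.8% of all genes. Serpina6, the corticosteroid carrier, fell by 1.58 and the α2-antiplasmin gene Serpinf2 fell by 1.13, while antithrombin, Serpinc1, differed by -0.13. The complement gene C9 read 10.29, 9.89 and 9.76 against 13.70, 13.61 and 13.80, a difference of -3.73 (SE 0.283, adjusted p = 1.28e-06).

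Among transcription factors enriched in liver 12 of 25 fell and 1 rose (median -0.42). Cebpa, which drives hepatocyte differentiation and restrains division, read 9.89, 10.13 and 9.80 with treatment and 11.16, 11.08 and 11.22 without. The groups were tight and apart (-1.21, SE 0.0874, adjusted p = 9.09e-07). Foxa3 fell by 1.37, Onecut2 fell by 1.05 and Nfix fell by 1.18, where 1 of 5 Nfix probe sets gave 0.05. Hnf4a, a master regulator of hepatocyte genes, fell by 0.69, which was under the fold threshold when only unsuffixed probe sets were used (-0.48). Cebpb differed by -0.06. Nuclear receptors gave 5 falls and 2 rises in 35 (4 rises without treated mouse 3). The falls were 14.3% and the rises 5.71%, against 7.77% and 12.8% over all genes. The estrogen receptor Esr1 fell by 2.09 (SE 0.174), and Ppara itself fell by 0.78 (SE 0.142, adjusted p = 8.31e-04). Immediate early and Klf factors gave 9 rises and 5 falls in 31. Klf6 and Klf11 rose by 1.93 and 1.47, while Klf12, Klf13 and Klf15 fell (-2.07, -1.35 and -1.24). Egr1, a growth-induced factor, rose in every treated mouse but unevenly, with 8.12, 9.97 and 7.12 against 5.82, 6.12 and 5.83 (2.48, SE 0.675, adjusted p = 0.00999). The sterol factor Srebf1 and the carbohydrate factor Mlxipl differed by -0.12 and 0.16, neither past the test.

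DNA replication had the highest median of all lists, 1.73, with 29 rises and 1 fall in 37 genes (2 falls without treated mouse 2). Mcm5, a subunit of the replicative helicase, read 9.53, 10.60 and 9.03 in treated and 6.17, 5.38 and 6.01 in untreated mice (3.87, SE 0.445, adjusted p = 3.06e-05). Lig1, which joins Okazaki fragments, read 8.43, 9.47 and 8.22 against 6.15, 5.95 and 6.06 (2.65, SE 0.305), and Gins4, of the same helicase complex as Mcm5, rose by 0.92. All groups here were apart, with treated mouse 2 the highest each time. The loading factor Cdc6 rose by 2.81 (SE 0.582) from an untreated level under the filter level. The exception was Mcm10, also an initiation factor, at 8.24, 8.74 and 7.50 with treatment and 11.41, 11.36 and 11.46 without, a difference of -3.25 (SE 0.24, adjusted p = 1.05e-06). The flap nuclease Fen1 differed by -0.12 on its brighter probe set and by 2.31 on the other, and the thymidine kinase Tk1 by -0.45, neither called.

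E2F factors switch on replication genes, and an E2F-like element was searched as TTTNNCGC on both strands in the same windows. It stood in 176 of 1436 genes that rose (12.3%), 60 of 814 that fell (7.37%) and 991 of all 10926 (9.07%), with no test made of the difference. The windows of Mcm5 and Lig1 are shown as examples of replication genes described above that hold a match (Cdc6 holds one too), with 1 match in capitals in each.
Mcm5: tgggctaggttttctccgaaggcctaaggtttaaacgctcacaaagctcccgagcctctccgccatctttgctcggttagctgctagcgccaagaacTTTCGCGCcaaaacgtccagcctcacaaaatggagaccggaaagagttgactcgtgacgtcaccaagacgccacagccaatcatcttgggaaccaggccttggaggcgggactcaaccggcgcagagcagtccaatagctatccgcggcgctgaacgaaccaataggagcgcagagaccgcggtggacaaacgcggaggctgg
Lig1: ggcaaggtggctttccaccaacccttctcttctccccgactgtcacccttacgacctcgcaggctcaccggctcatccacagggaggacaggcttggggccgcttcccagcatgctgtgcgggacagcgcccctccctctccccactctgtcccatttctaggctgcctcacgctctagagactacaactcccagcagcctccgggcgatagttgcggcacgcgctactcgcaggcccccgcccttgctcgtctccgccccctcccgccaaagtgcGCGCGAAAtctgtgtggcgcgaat
The Mcm5 window is chr8:75109259-75109558 (+) with the match from position -153, and the Lig1 window chr7:13278576-13278875 (+) with the match from position 27.

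Mitosis genes gave 25 rises and no fall in 37 (median 1.13; 16 rises with unsuffixed probe sets). Mad2l1, of the spindle checkpoint, read 8.80, 9.90 and 8.70 against 6.61, 6.67 and 6.34 (2.59, SE 0.316, adjusted p = 4.68e-05). Ect2, needed for cytokinesis, read 7.73, 8.44 and 6.66 against 4.63, 4.58 and 4.41 (3.07, SE 0.389), the untreated mice being under the filter level. Cyclin A2, Ccna2, rose by 1.497, and Cdc20, which triggers anaphase, differed by 0.14 on its brightest probe set and by up to 2.14 on the others. Treated mouse 2 had the highest level of the 3 treated mice for 29 of the 29 replication genes that rose and 20 of the 25 mitosis genes. For all 1742 called rises it was the highest in 586, or 33.6%. The median rise of the 29 replication genes over the untreated mean was 1.73, 2.61 and 1.504 in treated mice 1, 2 and 3. For mitosis the medians were 1.64, 1.90 and 0.97, and for the 12 risen genes of mitochondrial β-oxidation 1.42, 1.32 and 1.34. In the oxidation genes the 3 mice were close. Calls for Esco2 and Cdca5, which hold sister chromatids together, were lost without treated mouse 2, at 1.19 and 1.08. The Esco2 call was also lost without any 1 of the untreated mice, and the Cdca5 call without untreated mouse 1 or 2. Both were lost in the fit of the 6 wild-type arrays alone (adjusted p = 0.0677 and 0.0523), and Esco2 with a robust, trended fit (adjusted p = 0.0625).

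**Figure D4:**
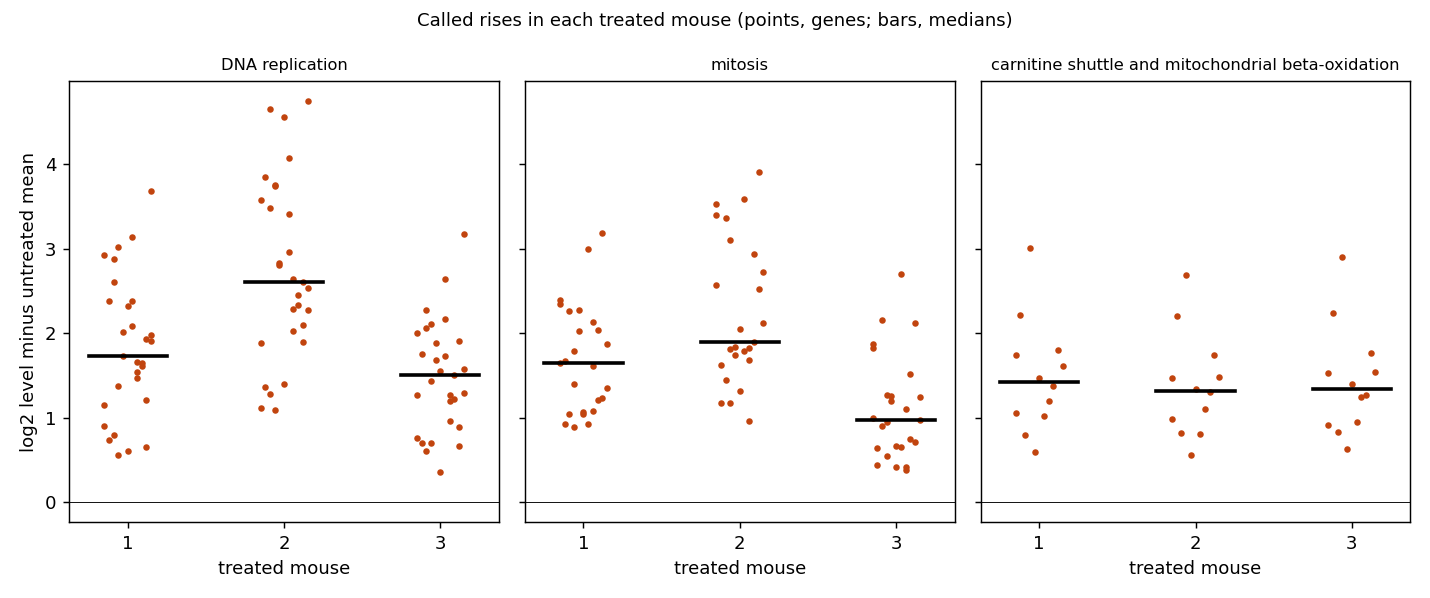
Level in each treated mouse minus the untreated mean, log2 (y axis), for the called rises of 3 lists; points are genes, bars are medians and the x axis gives the treated mouse. Treated mouse 2 stands highest for DNA replication (median 2.61 against 1.73 and 1.504), while the β-oxidation medians lie between 1.32 and 1.42.

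Genes known as p53 targets gave 7 rises and no fall in 23 (median 0.43). The cell-cycle inhibitor Cdkn1a (p21) read 10.06, 9.75 and 9.70 with treatment and 8.14, 7.29 and 6.69 without (2.46, SE 0.287, adjusted p = 3.30e-05), and the untreated mice spread over 1.45 units. Gadd45b, a stress gene with a role in liver growth, rose by 3.43 on its brightest probe set and 0.13 on the least-moved of 3. Palb2, a partner of BRCA2 in DNA repair, read 9.24, 8.97 and 8.94 against 5.21, 5.24 and 5.22, a rise of 3.83 (SE 0.194). A list of fetal liver and progenitor genes gave 9 rises and 1 fall in 18 (median 0.57), or 50% and 5.56%. Over all genes the shares were 12.8% and 7.77%. Its members were chosen with earlier results of these data known, so the count is no test of a fetal or progenitor state. The largest rise in the list, 5.82, was that of Mogat1, which is also in the glycerolipid list. Afp, α-fetoprotein, rose from 5.15, 4.98 and 5.13 to 6.85, 6.69 and 6.54 (1.61, SE 0.0967), a weak signal in every mouse. Ly6d rose by 5.72, the keratin Krt23 by 4.09 and Anxa2 by 2.11, while the progenitor and bile duct genes Epcam and Krt19 differed by -0.31 and -0.01, with their full list given among the cell types. Cytoskeletal genes gave 16 rises and no fall in 53 (median 0.23), among them Krt8 at 1.55 and Tubb5 at 1.95, with Actb at 0.15.

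Of 46 proteasome genes 21 rose and none fell, with a median of 0.56 and members from -0.59 to 1.33. In the fit of the 6 wild-type arrays alone 1 fell. The rises were small, and at a 2-fold threshold 1 of the 21 was called. The ubiquitin receptor Psmd4 was at 11.91, 11.79 and 11.86 against 10.57, 10.47 and 10.54, a rise of 1.33 (SE 0.0682, adjusted p = 7.58e-08), with -0.17 on 1 of 3 probe sets. The core subunit Psma7 rose by 0.96 and the deubiquitinase Psmd14 by 0.96, while Psma4 read 12.56, 12.53 and 12.56 against 12.05, 12.01 and 12.02, groups apart but a difference of 0.52. Nfe2l1 (NRF1), a transcription factor for proteasome genes, rose by 0.97 (SE 0.1). Protein folding in the endoplasmic reticulum leaned the other way, with 7 falls and 2 rises in 46 (median -0.32). That count was unsteady, at 3 falls without untreated mouse 1 and 13 without untreated mouse 2, and at 11 falls and 1 rise after quantile normalization. It was also 1 rise without treated mouse 1 or untreated mouse 2. Pdia5 and Pdia6, which form disulfide bonds, fell (-1.08 and -0.90). Lysosome genes gave 6 rises and 3 falls in 33 (5 falls without treated mouse 1 or after quantile normalization, 6 without untreated mouse 3), with the protease Ctsd at 1.01 and Psap, the sphingolipid activator precursor, at 0.95. Autophagy genes gave 3 rises and 4 falls in 29 (7 falls after quantile normalization, 1 rise with unsuffixed probe sets). Map1lc3a was at 1.05 and Ulk2 at -1.24. Rises and falls were 18.2% and 9.09% of lysosome genes and 10.3% and 13.8% of autophagy genes. Over all genes they were 12.8% and 7.77%, with no test made of the difference. Iron handling gave 3 rises and 4 falls in 24, or 12.5% and 16.7%, and 17 genes were not called. The share of rises was near the 12.8% of all genes. Hjv, a coreceptor that raises hepcidin, rose by 1.53, Tmprss6, which cleaves it, fell by 0.84, and the transferrin sensor Tfr2 fell by 0.96.

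Markers of cell types were set beside these values, and over all genes 12.8% rose and 7.77% fell. The liver label was borne out, since Alb, Apoa1 and Ttr read above 14 in all 6 mice, near the top of the scale, and differed by -0.02, -0.07 and -0.04. Of 15 hepatocyte markers 6 fell (40%) and none rose. Their mean difference from the untreated mean was -0.55, -0.62 and -0.50 in the 3 treated mice and -0.02 to 0.03 in the untreated ones. For 15 Kupffer cell and macrophage markers it was 0.40, 0.06 and -0.06 in treated and -0.10 to 0.15 in untreated mice. There were 2 rises, Cd68 (0.90) and Fcgr1 (1.23, but -0.01 on its second probe set), and no fall (1 fall without untreated mouse 1). These rises were 13.3% of the list, near the 12.8% of all genes. Sinusoidal endothelial markers gave 3 falls in 16, or 18.75% (1 fall without treated mouse 1), among them Stab2 at -0.86. Their means were -0.40 to -0.10 in treated and -0.02 to 0.03 in untreated mice. Stellate cell and fibroblast markers gave 5 falls in 17, or 29.4%, among them Reln at -0.99 and Rgs5 at -0.85. Their means were -0.34 to -0.22 in treated and -0.06 to 0.07 in untreated mice. Cholangiocyte markers gave 2 rises, Sox9 (0.82) and Prom1 (2.16), and no fall in 5 (1 rise with unsuffixed probe sets), with means of 0.46 to 0.71 in treated and -0.03 to 0.03 in untreated mice. No T and NK cell marker of 11 was called. Of 6 adipocyte markers 4 rose (66.7%), with means of 1.62 to 1.98 in treated and -0.08 to 0.08 in untreated mice. The lipid-droplet gene Cidec rose from 4.74, 4.37 and 4.23 to 7.48, 6.99 and 8.23 and Cidea from 4.72, 4.49 and 4.89 to 7.69, 5.88 and 6.59. Fabp4 and the lipase Lipe rose by 4.81 and 1.17, while Adipoq, Lep and Plin1, which define fat cells, were not among the tested genes. No marker was listed at 0, a value that this scale does not reach. The part of any change in cell makeup in the results above was not tested.

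Some genes differed strongly between mice of 1 group. Treated mouse 2 stood apart from both other treated mice for Cyp4a31, a ω-hydroxylase, at 12.14, 8.21 and 11.44 against 6.32, 6.35 and 6.52 in untreated mice (4.20, and 5.40 without that mouse). It did so too for the protease Ctse, at 13.27, 9.93 and 13.40 against 9.75, 9.06 and 9.11, and for the matrix protein gene Itih5, at 6.42, 3.80 and 6.57 against 8.32, 8.82 and 8.32. In each case the other 2 treated mice lay close together. Treated mouse 1 was the highest for Ccl2 and Slfn4. The monocyte attractant Ccl2 read 8.94, 6.27 and 6.46 against 5.77, 5.70 and 5.31, and its call was lost without untreated mouse 2 or 3 (1.69 and 1.49) and in the fit of the 6 wild-type arrays alone (1.63, adjusted p = 0.0863), while without treated mouse 1 its difference was 0.77 and still called. Slfn4, an interferon-induced myeloid gene, read 8.41, 5.33 and 5.06 against 3.87, 3.50 and 3.64 and moved from 2.60 to 1.52 without treated mouse 1; its untreated signal lay under the filter level, so neither is an exact fold, which holds as well for Abcd2, Cidec, Cidea, Psat1, Esco2 and Cdca5. The neutrophil genes S100a8 and S100a9 read 8.10, 6.71 and 6.49 and 8.55, 7.05 and 6.75 in treated mice, with differences that were not called (1.05 and 1.04), and the 7 neutrophil markers had means of 0.70, 0.07 and -0.13 in treated mice 1, 2 and 3 and of 0.49, -0.44 and -0.06 in untreated mice 1, 2 and 3, so the spread was as wide without treatment. The interferon-induced chemokine Cxcl10 rose in all 3 treated mice, from 6.28, 6.05 and 5.72 to 9.36, 8.91 and 7.55 (2.59, SE 0.436, adjusted p = 4.85e-04). Among untreated mice, mouse 1 was highest for the acute-phase gene Saa1, at 13.62, 10.93 and 12.44 against 10.10, 8.42 and 7.27 in treated mice. The difference of -3.73 (SE 1.06, adjusted p = 0.0124) was not called without it (-3.09), and Lcn2, another acute-phase gene, read 10.93, 6.66 and 7.80 against 8.05, 6.88 and 7.02 and did not pass the test. Untreated mouse 3 was the highest of its group for 15 of the 30 largest rises, against 25.3% of all called rises and 28.4% of all genes. The ω-hydroxylase Cyp4a14 was one of them, at 8.48, 8.61 and 10.44 in untreated mice, against 14.22, 14.22 and 14.30 in treated mice (5.07, SE 0.429; 5.71 without untreated mouse 3).

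The 10 largest rises were read in the 2 treated mutant groups, as were Mcm5, Lig1 and Ect2 from the replication and mitosis lists. Each comparison below shares the treated wild-type arrays with the ones above. The genes were chosen for their rise in those arrays, which favours a lower mutant value in advance. The p values do not allow for that choice. PPARα-null mice also came from a cross with another strain, so genotype and strain cannot be told apart. Between treated PPARα-null and treated wild-type mice 13.4% of genes were called, and between treated Clk/Clk and treated wild-type mice 9.13%. In null mice Fabp3, a fatty acid carrier of muscle, read 5.47, 5.63 and 5.49, just above untreated wild type (5.28, 5.18 and 5.44), where treated wild-type mice read 12.11, 9.95 and 11.05 (null minus treated wild type -5.51, SE 0.417, adjusted p = 2.83e-06). Ly6d was likewise low in null mice, at 6.44, 6.44 and 6.98. Pdk4 read 9.13, 10.08 and 10.85 in null mice, between the untreated and treated wild-type groups (-3.10, SE 0.365, adjusted p = 7.12e-05), and Cyp4a14 12.37, 13.19 and 13.50, closer to treated wild type (-1.23, adjusted p = 0.0451). In Clk/Clk mice Pdk4, Fabp3 and Cyp4a14 differed from treated wild type by 0.16, 0.25 and 0.10, none past the test. The replication gene Mcm5, which is not among the 10 largest rises, had another order. It read 7.45, 9.002 and 8.89 in null mice and 5.43, 5.14 and 5.77 in Clk/Clk mice, against 9.53, 10.60 and 9.03 in treated and 6.17, 5.38 and 6.01 in untreated wild type. The Clk/Clk difference from treated wild type was -4.28 (SE 0.445, adjusted p = 1.19e-04) and the null difference -1.27 (SE 0.445, adjusted p = 0.0449). Lig1 and Ect2 differed from treated wild type by -2.56 and -2.58 in Clk/Clk mice and by -1.32 and -1.34 in null mice. Mutant values of the other risen replication and mitosis genes are not given here, so these genes do not stand for their lists.

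**Figure D5:**
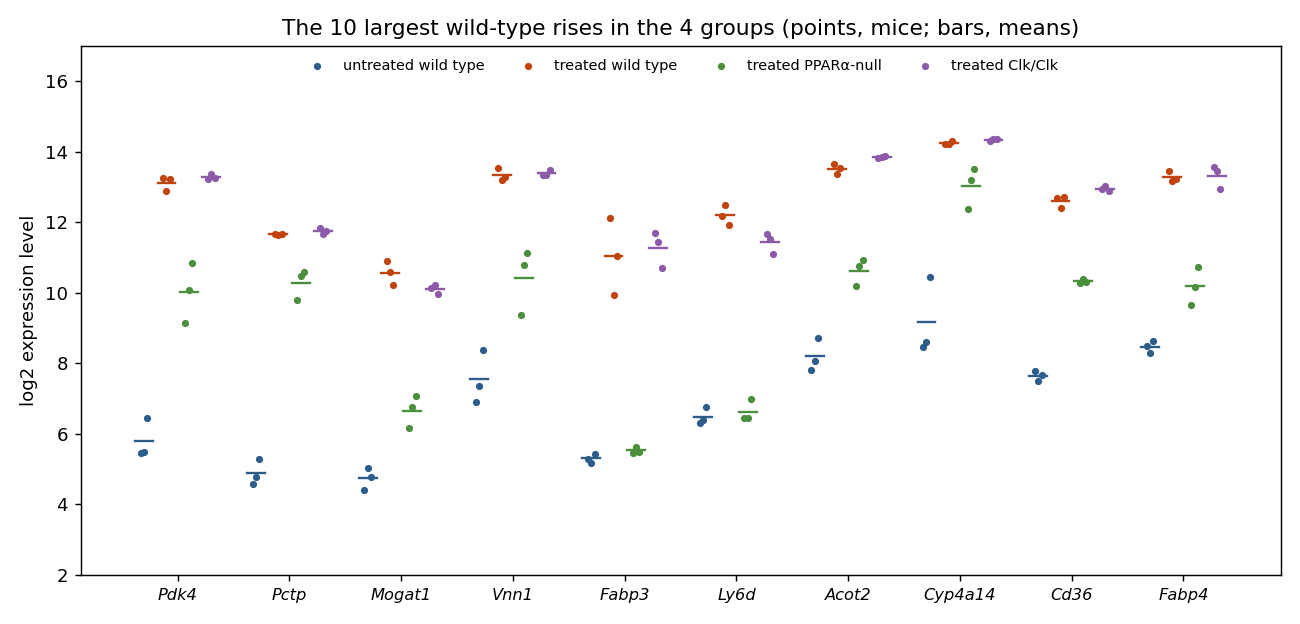
Log2 expression level (y axis) of the 10 genes with the largest rise in wild-type mice (x axis) in all 4 groups of 3 mice; points are mice and bars are group means. Treated Clk/Clk mice lie near treated wild type, farthest for Ly6d (-0.77), while treated PPARα-null mice range from the untreated wild-type level (Fabp3, Ly6d) to near the treated one (Cyp4a14).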

How the data were processed

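Liver RNA of 12 mice, 3 per group, was hybridised to Affymetrix arrays, and all 12 columns were used. The deposited values are log2 expression levels per probe set, and the submitters' processing notes name RMA, which corrects background, equalises arrays and summarises probes; its version and settings are not given in the sources used here. Values ran from 2.25 to 15.0, and array medians from 5.45 to 5.50.

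Of 45101 probe sets, 64 were array controls and 34945 had exactly 1 symbol in the platform's gene table. Symbols were checked against RefSeq (GRCm38.p6): none changed, and 204 probe sets without a match were named as the platform names them. A probe set entered when 3 or more arrays held it at or above their 40th percentile, which lay at 4.87 to 4.92. Each gene was read on its brightest kept probe set, giving 13598 genes. 4 group means were fitted to all 12 arrays with limma 3.58.1 in R 4.3.3 (lmFit, eBayes, no covariate). All 12 arrays share 1 estimate of the spread per gene. Python 3.11.15 and matplotlib 3.10.9 made summaries and figures, and the fit was tested on simulated data.

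The same replicate numbers occur in both groups, the labels do not say that they pair the mice, and the mice were treated as unpaired. Deviations from the group means of same-numbered mice correlated at 0.0987, 0.0564 and -0.0267. For differently numbered mice the values ran from -0.117 to 0.062. With 3 mice a group these values cannot exclude a shared batch. Gene lists are described by counts and medians, with no test. The members and lists were chosen with earlier results of these data known. The genes named are the 30 largest rises and 30 largest falls with groups apart, up to 5 called and 2 uncalled genes per list, 3 bright genes and all called ones per marker list, the 10 called genes with the widest spread in each group, and a few always taken (Ppara, Ehhadh, Cyp4a14, Pdk4, Fgf21, Cpt1a and Fabp1, with some items not reported here). That gave 418 genes, of which the text names a selection. Adipoq, Lep, Plin1 and G6pdx are named only as not tested. 18 alternatives were run; those probe sets with no symbol or several are in no count of genes.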

Additional observations from a re-analysis of the deposited data

How the results depend on the processing

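The counts of 1742 rises and 1056 falls stayed within 1.5 times under 16 of 18 alternatives. A 2-fold threshold gave 810 and 432, and no minimum fold gave 3710 and 2939. Leaving out each mouse in turn gave 1698 to 1825 rises and 1033 to 1098 falls. The other settings gave 1439 to 1803 rises and 945 to 1208 falls, the lowest number of rises coming from probe sets without a suffix. With the replicate number as a block there were 1746 rises and 1055 falls, 1736 and 1052 of them among the calls of the fit without the block. Of the 301 called genes among the 418 that could be named, 206 lost their call under no alternative that gave them a value; unsuffixed probe sets gave a value for 347 of the 418 and the 60th percentile filter for 410. Directions turned where another probe set stood for the gene: with unsuffixed probe sets Pank2 gave -0.16, Idh2 -0.11 and Mrpl17 -0.29, and with the mean of probe sets Fen1 gave 1.10. Of 1367 called genes with several probe sets, 206 had probe sets of opposite sign. Precision is limited by 3 mice a group and, for 149 rises from and 53 falls to a mean under the filter level, by signal near background. Unsuffixed probe sets, with fewer genes tested, moved list counts by over 1.5 times for rises in coenzyme A genes (5 to 3), the tricarboxylic acid cycle (3 to 1), glycolysis (2 to 0), serine and glycine metabolism (3 to 1), Slco and Slc22 carriers (3 to 1), signal transducers (2 to 0), nuclear receptors (2 to 1), liver factors (1 to 0), pericentral genes (1 to 2), lysosome (6 to 2), cytosolic ribosome (4 to 2), antigen presentation (2 to 0), endoplasmic reticulum folding (2 to 1), stellate markers (0 to 1) and iron handling (3 to 1, with falls 4 to 2), and for falls in erythroid markers (1 to 0), besides the mitosis, autophagy and cholangiocyte counts given above. The mean of probe sets did so for rises in peroxins (5 to 3), antigen presentation (2 to 1), endoplasmic reticulum folding (2 to 1) and ketone body genes (1 to 2) and for falls in coenzyme A genes (1 to 0), glycerolipid synthesis (1 to 2), sphingolipid metabolism (1 to 0), nuclear receptors (5 to 3) and sinusoidal markers (3 to 1).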

Other observations

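Some probe sets could not be assigned to a single gene. Of those kept by the filter, 3814 had no symbol, of which 247 were called higher and 320 lower, and 642 had several, of which 77 were called higher and 32 lower, by the same threshold.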
